A study of Mus musculus with 8 samples.

Results

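The Cyp4 genes of the mouse encode cytochrome P450 enzymes that hydroxylate fatty acids at the end of the chain. The 8 genes considered were Cyp4a10, Cyp4a12a, Cyp4a12b, Cyp4a14, Cyp4f13, Cyp4f14, Cyp4f15 and Cyp4v3, and their members on the array were all probes that carry one of these symbols. Of the 8 genes, 7 had a probe, with 1 probe each, so the values rest on 7 of the 45281 probes of the array. All 7 probes were detected on all 8 arrays and were among the 16487 probes tested. Cyp4a10 was not analysed here.

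Liver RNA of 8 male C57BL/6J mice, listed with an age of 25 weeks, was hybridised to Illumina bead arrays, with 1 array per mouse. All mice ate a diet with 60% of its calories from fat from the age of 6 weeks, and after 14 weeks on it they received an antisense oligonucleotide, or ASO, at a dose of 25 mg/kg. An ASO is a short strand of modified nucleotides designed to pair with one RNA and bring down its level. Injections were given into the peritoneum 2 times a week for 3 weeks, to 4 mice with an ASO against Mogat1 (a monoacylglycerol acyltransferase) and to 4 mice with a scrambled control ASO. The listed age is higher than the sum of these steps. Both groups carry an ASO and the high-fat diet, so the comparison holds neither untreated mice nor mice on standard food. Whole liver was used, so fewer cells of a type and less RNA per cell cannot be told apart in any value below.

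Cyp4 enzymes sit in the endoplasmic reticulum and take electrons from cytochrome P450 reductase to place a hydroxyl group on the omega carbon of a fatty acid. Alcohol and aldehyde dehydrogenases then turn the product into a dicarboxylic acid, which peroxisomes shorten, and this omega-oxidation route is known to gain weight when mitochondrial oxidation is overloaded. In the mouse, Cyp4a10 and Cyp4a14 are classical targets of the fatty acid receptor PPAR-alpha in the liver, whereas Cyp4a12a is a male-biased enzyme that depends on androgen and growth hormone. Cyp4a enzymes act on medium- and long-chain fatty acids and on arachidonic acid, and the Cyp4f enzymes act on leukotrienes and long-chain fatty acids. Cyp4v3 is the mouse counterpart of human CYP4V2, a fatty acid hydroxylase whose loss causes a crystalline dystrophy of the retina.

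RefSeq promoter windows, from 250 bases before to 50 bases after a start site on GRCm38.p6, were at hand for 4 of these genes, and 1 window of each is shown so that the letters upstream of Cyp4v3, the member that passed the test, can be read beside those of the Cyp4f members. The Cyp4v3 window lies at chr8:45333114-45333413 on the minus strand, that of Cyp4f13 at chr17:32947312-32947611 on the minus strand, that of Cyp4f14 at chr17:32917307-32917606 on the minus strand, and that of Cyp4f15 at chr17:32685409-32685708 on the plus strand. Capitals mark matches to a DR1 element in Cyp4v3 and to a STAT5 element in Cyp4f13.
Cyp4v3: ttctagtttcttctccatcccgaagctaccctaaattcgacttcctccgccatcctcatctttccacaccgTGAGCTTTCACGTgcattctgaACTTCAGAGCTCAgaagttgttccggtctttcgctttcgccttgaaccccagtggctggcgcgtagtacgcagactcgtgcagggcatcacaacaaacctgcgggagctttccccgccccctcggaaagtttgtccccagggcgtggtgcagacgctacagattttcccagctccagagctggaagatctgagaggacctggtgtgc
Cyp4f13: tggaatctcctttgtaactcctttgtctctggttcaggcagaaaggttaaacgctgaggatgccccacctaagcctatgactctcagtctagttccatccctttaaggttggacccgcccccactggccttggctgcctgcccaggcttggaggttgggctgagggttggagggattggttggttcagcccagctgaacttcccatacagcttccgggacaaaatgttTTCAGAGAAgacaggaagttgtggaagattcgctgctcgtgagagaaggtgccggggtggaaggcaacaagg
Cyp4f14: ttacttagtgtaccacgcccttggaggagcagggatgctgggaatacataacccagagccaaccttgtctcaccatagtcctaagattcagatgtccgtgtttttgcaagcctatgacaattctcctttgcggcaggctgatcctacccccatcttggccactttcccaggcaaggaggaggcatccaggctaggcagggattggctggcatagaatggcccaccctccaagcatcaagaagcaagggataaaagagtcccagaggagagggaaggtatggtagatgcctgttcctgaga
Cyp4f15: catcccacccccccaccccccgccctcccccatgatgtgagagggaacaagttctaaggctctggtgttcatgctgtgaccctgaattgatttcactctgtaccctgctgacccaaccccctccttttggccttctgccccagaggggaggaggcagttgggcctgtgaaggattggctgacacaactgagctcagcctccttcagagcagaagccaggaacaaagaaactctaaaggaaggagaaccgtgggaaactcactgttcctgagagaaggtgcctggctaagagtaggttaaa

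The windows were searched on both strands for 3 motifs. The DR1 element, the type of site that PPAR-alpha binds with its partner receptor, was taken as 2 copies of AGGTCA spaced by 1 base with up to 3 mismatches. The STAT5 element, bound by a factor downstream of growth hormone, was taken as TTC, any 3 bases and GAA, and the TATA box as TATAAA. The Cyp4v3 window held 2 DR1 matches that do not overlap each other, each with 3 mismatches, which begin 179 bases before the start site on the minus strand and 157 bases before it on the plus strand of the promoter. The Cyp4f13 window held 1 STAT5 match that begins 22 bases before the start site, and none of the 3 motifs was found in the 4 Cyp4f14 windows or in the Cyp4f15 window. A DR1 match of this looseness stood in 24.7% of all 32544 promoters of the table, a STAT5 match in 8.33% and a TATA box in 13.6%, so these matches describe the letters of the windows and no more.

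Each array detected between 15788 and 16944 probes, at a median signal of 84.3 to 112. The Mogat1 probe was not detected on any of the 8 arrays, so the targeted gene gives no check of the labels. On the first principal component, which held 43.8% of the variance of the tested probes, the controls lay between -25.8 and -16.7, Mogat1 ASO replicate 1 at 8.36 and the other Mogat1 ASO arrays between 23.6 and 29.2. Mogat1 ASO replicate 1 stood apart on the second component too, at 34.4 against -15.7 to 13.9 for all other arrays, and it received the lowest array weight, 0.426. The members' values are given with and without it where it moves them. The tissue was checked by its defining markers: 7 of the 9 hepatocyte markers on the array were detected on all 8 arrays, while the probes of Alb and Fgb were detected on none, and all 6 kidney markers were undetected.

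Cyp4v3 was the only Cyp4 member that passed the test, and it was lower in all 4 Mogat1 ASO mice. The other 6 members did not pass it with all 8 arrays, which gives 1 of 7 members lower, beside 5.93% of all tested probes lower, 6.68% higher and 12.6% called in either direction. The differences of the 7 members all had a negative sign, from -1.97 for Cyp4a12b to -0.02 for Cyp4f15 on the log2 scale, against a median of -0.0038 over all 16487 tested probes. The members therefore differed widely in size and in scatter, and each is described by its place in the family.

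**Figure D1:**
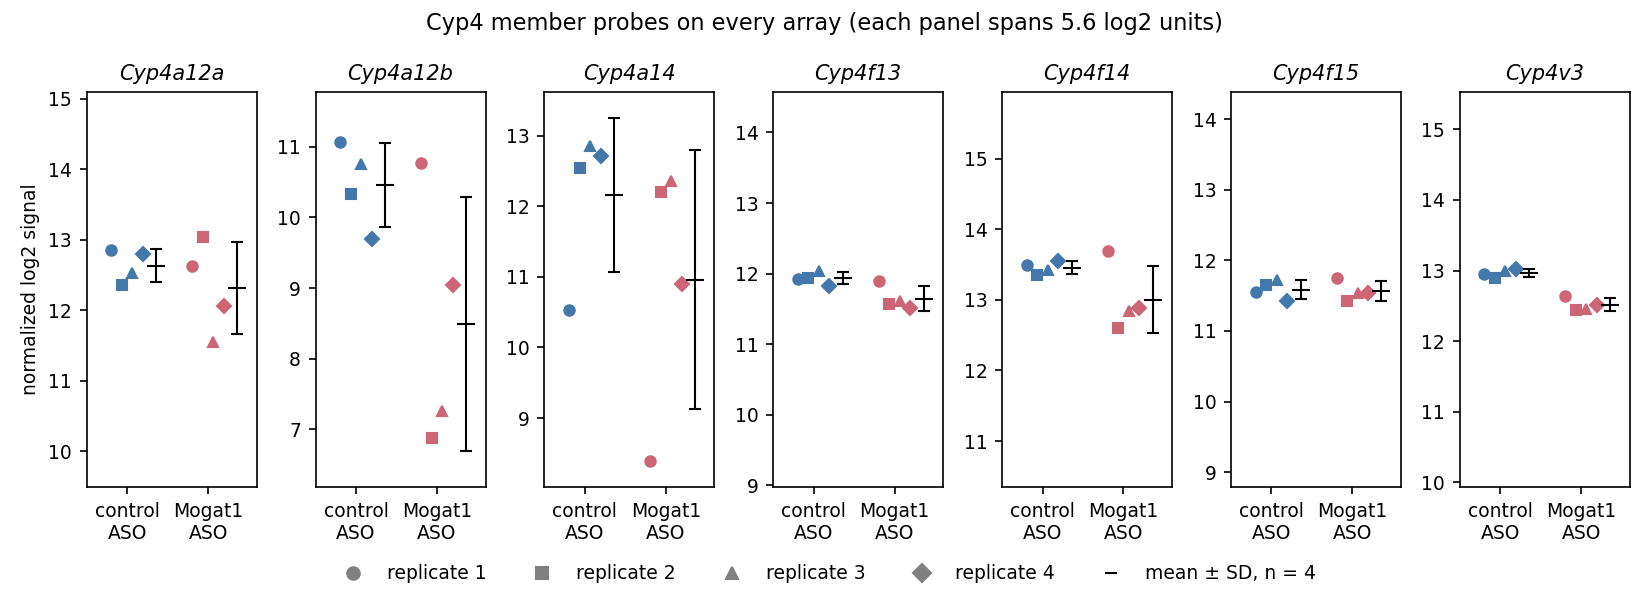
Normalized log2 level of the probe of each of the 7 Cyp4 members on each of the 8 arrays, by group, with the group mean and SD. The groups do not overlap for Cyp4v3, and Mogat1 ASO replicate 1 lies inside or above the control range for Cyp4a12b, Cyp4f13, Cyp4f14 and Cyp4f15.

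Levels are normalized log2 intensities, given throughout in the order of replicates 1 to 4, with standard deviations over 4 mice. The Cyp4v3 probe (ILMN_1251504) read 12.95, 12.90, 12.99 and 13.02 in the control mice and 12.64, 12.44, 12.46 and 12.52 in the Mogat1 ASO mice. All 4 Mogat1 ASO arrays were below all 4 controls, a separation that 8.56% of all tested probes showed in the same direction and 18.1% in either. On the scale of the deposited signal, before any normalization, the controls ranged from 7525 to 9094 and the Mogat1 ASO arrays from 4983 to 6826, again without overlap. The mean was 12.97 ± 0.05 (SD, n = 4) in the controls and 12.52 ± 0.09 (SD, n = 4) with the Mogat1 ASO. Cyp4v3 fell by 0.45 on the log2 scale (SE 0.07, 95% interval -0.61 to -0.29), which is 1.37-fold, with a limma adjusted p of 0.00364, rank 339 of all tested probes. The call held in all 20 alternatives, with adjusted p from 0.000878 to 0.0168. Cyp4v3 lies apart from the other family members in the genome, with F11, Klkb1, Fam149a and Tlr3 as its neighbours.

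Cyp4f13, Cyp4f14 and Cyp4f15 lie on the same chromosome, with Cyp4f13 and Cyp4f14 side by side, and they differed in their values. Cyp4f14 is the mouse enzyme known for omega-hydroxylation of leukotriene B and of vitamin E. Its probe (ILMN_1231625) read 13.50, 13.35, 13.42 and 13.56 in the control mice and 13.69, 12.60, 12.84 and 12.88 in the Mogat1 ASO mice. Mogat1 ASO replicate 1 was above every control and the other 3 Mogat1 ASO arrays were below every control. The difference was -0.45 on the log2 scale (SE 0.19, 95% interval -0.86 to -0.04, 1.37-fold) with a limma adjusted p of 0.142, so Cyp4f14 did not pass with all arrays. Without Mogat1 ASO replicate 1 the difference was -0.68 (95% interval -0.88 to -0.48, 1.6-fold) with an adjusted p of 0.000873.

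Cyp4f13 showed the same arrangement on a smaller scale. Its probe (ILMN_3006911) read 11.93, 11.94, 12.04 and 11.83 in the control mice and 11.90, 11.56, 11.61 and 11.51 in the Mogat1 ASO mice. Replicate 1 of the Mogat1 ASO group lay inside the control range and the other 3 lay below it. The difference was -0.29 (SE 0.10, 95% interval -0.50 to -0.08, 1.22-fold) with a limma adjusted p of 0.0736, and without Mogat1 ASO replicate 1 it was -0.37 (1.29-fold) with an adjusted p of 0.00964.

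Cyp4f15 gave the smallest difference in the family. Its probe (ILMN_2906226) read 11.55, 11.65, 11.72 and 11.42 in the control mice and 11.75, 11.43, 11.54 and 11.54 in the Mogat1 ASO mice. The groups overlapped, with 3 Mogat1 ASO arrays inside the control range and 1 just above it. The difference was -0.02 (SE 0.10, 95% interval -0.23 to 0.19) with a limma adjusted p of 0.911, and its sign turned in 3 of the fits that leave out 1 array.

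**Figure D2:**
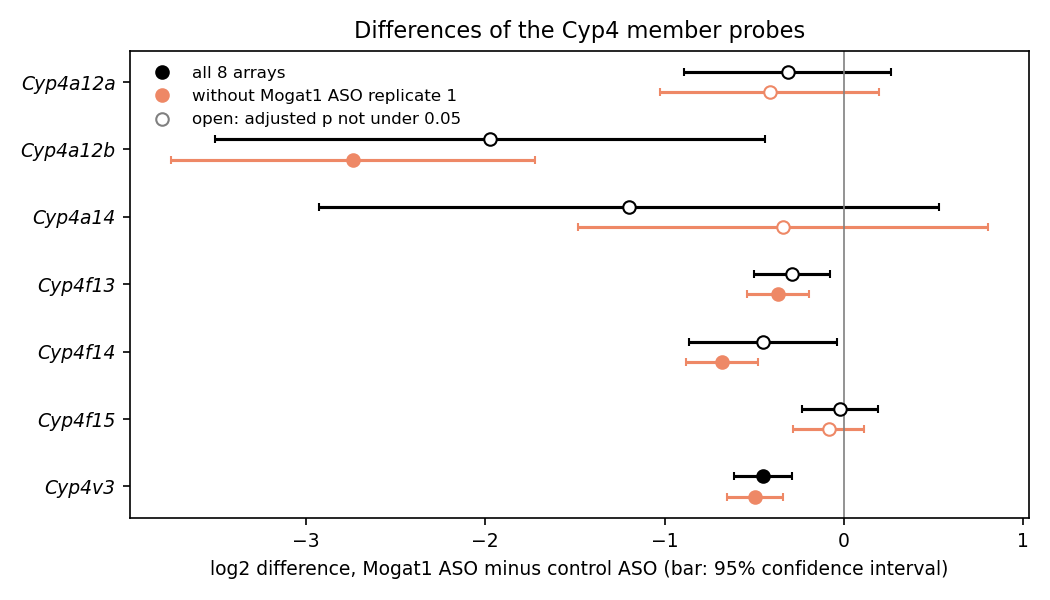
Difference in log2 level, Mogat1 ASO minus control ASO, for each of the 7 Cyp4 members with its 95% interval, from all 8 arrays and without Mogat1 ASO replicate 1. Without that array the intervals of Cyp4a12b, Cyp4f13, Cyp4f14 and Cyp4v3 lie below 0 and those of Cyp4a12a, Cyp4a14 and Cyp4f15 include it.

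Cyp4a12b had the largest difference of the family but also a wide scatter. Cyp4a12a and Cyp4a12b are close relatives on one chromosome, known in the mouse for turning arachidonic acid into a vasoactive hydroxy acid, and a probe may also bind the transcript of a near-identical copy. The Cyp4a12b probe (ILMN_1217072) read 11.07, 10.33, 10.75 and 9.70 in the control mice and 10.78, 6.88, 7.25 and 9.05 in the Mogat1 ASO mice. Replicate 1 of the Mogat1 ASO group lay inside the control range, and replicates 2, 3 and 4 lay below every control, at 11.99-fold, 9.27-fold and 2.67-fold under the control mean. The deposited signals of this probe were 2126, 1547, 1651 and 980 in the controls and 1615, 200.3, 207 and 736 with the Mogat1 ASO, in which the same arrays are low. The mean was 10.46 ± 0.60 (SD, n = 4) in the controls and 8.49 ± 1.80 (SD, n = 4) with the Mogat1 ASO. The difference was -1.97 (SE 0.70, 95% interval -3.51 to -0.44, 3.93-fold), and only 0.212% of the tested probes had a larger one. It did not pass the test, with a limma adjusted p of 0.0887. Without Mogat1 ASO replicate 1 it was -2.74 (95% interval -3.75 to -1.72, 6.67-fold) with an adjusted p of 0.00305.

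Cyp4a12a did not show that arrangement. Its probe (ILMN_1254109) read 12.86, 12.35, 12.53 and 12.79 in the control mice and 12.63, 13.04, 11.55 and 12.06 in the Mogat1 ASO mice. Replicate 2 of the Mogat1 ASO group, the lowest array for Cyp4a12b, was the highest for Cyp4a12a, while replicates 3 and 4 were below all controls. The difference was -0.31 (SE 0.26, 95% interval -0.89 to 0.26, 1.24-fold) with a limma adjusted p of 0.481. It was -0.41 without Mogat1 ASO replicate 1 (adjusted p 0.335), -0.56 without replicate 2 (adjusted p 0.139) and -0.06 without replicate 3 (adjusted p 0.904). The change of Cyp4a12a minus that of Cyp4a12b was 1.66 on the log2 scale, which an exact two-sided permutation test did not separate from 0 (p = 0.2, 0.467 after adjustment over 21 pairs).

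Cyp4a14, the member best known as a PPAR-alpha target, varied most between mice of one group. Its probe (ILMN_2691680) read 10.53, 12.55, 12.86 and 12.71 in the control mice and 8.39, 12.20, 12.35 and 10.90 in the Mogat1 ASO mice. Replicate 1 was the lowest array in both groups, 3 of the 4 Mogat1 ASO arrays lay inside the control range, and Mogat1 ASO replicate 1 stood 13.7-fold under the control mean. Its SD exceeded that of 99.8% of the tested probes among the controls and of 99.9% with the Mogat1 ASO. The difference was -1.20 (SE 0.79, 95% interval -2.93 to 0.53, 2.30-fold) with a limma adjusted p of 0.356. It was -0.34 (adjusted p 0.695) without Mogat1 ASO replicate 1, and -1.74 (adjusted p 0.170) without control replicate 1. Without both of these arrays, an alternative added after the data were seen, it was -0.88 (95% interval -1.55 to -0.22) with an adjusted p of 0.0626.

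Mogat1 ASO replicate 1 took different places within the family, inside or above the range of the controls for Cyp4a12b, Cyp4f13, Cyp4f14 and Cyp4f15, inside it for Cyp4a12a, and below all of them for Cyp4a14 and Cyp4v3. Without it 4 of the 7 members passed the test, namely Cyp4a12b, Cyp4f13, Cyp4f14 and Cyp4v3, all lower. Of all 16487 tested probes, that fit called 1527 lower and 18.8% in either direction. What sets the mouse of Mogat1 ASO replicate 1 apart was not tested.

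A member that passed and one that did not need not differ in their change, so each pair of members was compared by its within-array difference. None of the 21 pairs passed after adjustment, and the smallest two-sided p that 70 assignments of the arrays allow is 0.0286. With 21 pairs, 12 would have to reach that value before any adjusted p fell under 0.05, so a count of 0 says little here. This value was reached by 2 pairs, both with Cyp4f15. The change of Cyp4f13 minus that of Cyp4f15 was -0.27, and that of Cyp4f15 minus that of Cyp4v3 was 0.43, each with all 4 Mogat1 ASO arrays beyond all controls, an exact permutation p of 0.0286 and an adjusted p of 0.3. Cyp4f14 and Cyp4v3 had nearly equal mean differences, with a change of one minus the other of -0.000975 (exact permutation p = 1), although the arrays behind them differ.

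**Figure D3:**
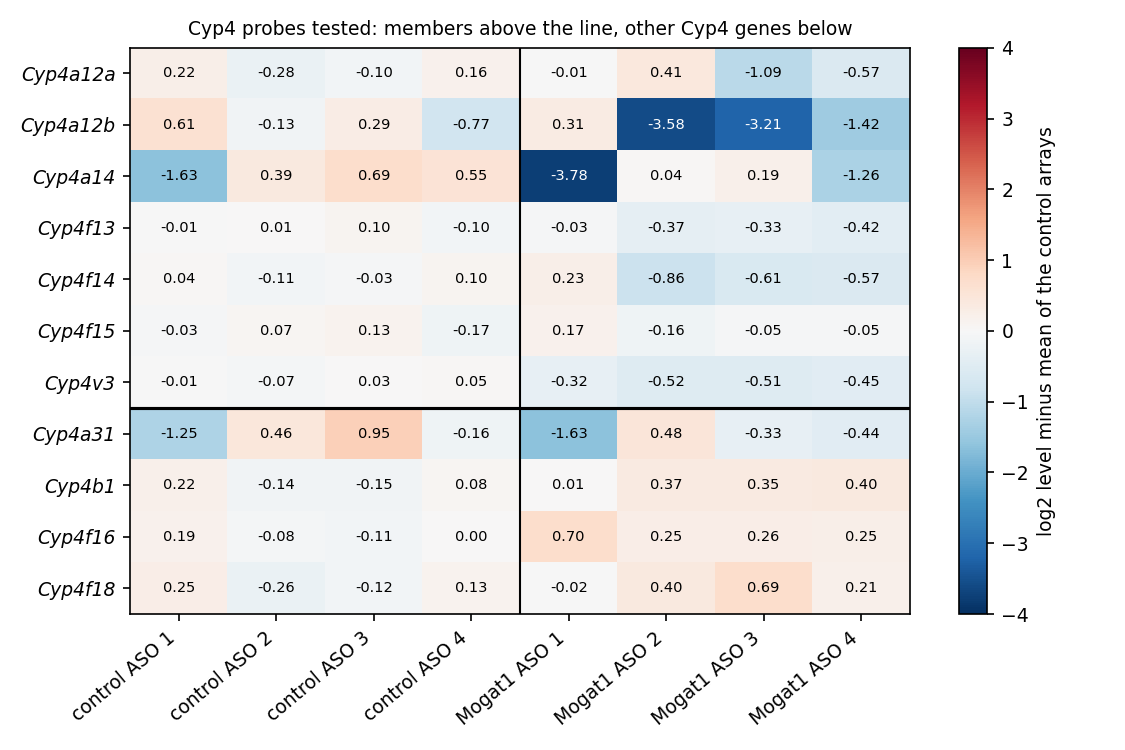
Log2 level of each tested Cyp4 probe on each array minus the mean of the 4 controls for that probe, for the 7 members and the other Cyp4 genes tested. Cyp4a14 and Cyp4a31 are low on replicate 1 of both groups, and Cyp4a12b is low on Mogat1 ASO replicates 2, 3 and 4.

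Of the 12 other Cyp4 genes listed, 7 had a probe and 4 were tested, and none of the 4 passed. Cyp4a31, which lies in the Cyp4a cluster near Cyp4a10 and Cyp4a14, read 8.75, 10.46, 10.95 and 9.84 in the control mice and 8.37, 10.48, 9.67 and 9.56 in the Mogat1 ASO mice, so that replicate 1 was lowest in both groups, as for Cyp4a14. Its difference was -0.48 (limma adjusted p 0.561), and single arrays decided its size: it was -0.10 without Mogat1 ASO replicate 1, -0.80 without Mogat1 ASO replicate 2, -0.90 without control replicate 1 and -0.17 without control replicate 3, none of which passed. The other 3 differences were positive, at 0.28 for Cyp4b1, 0.37 for Cyp4f16 and 0.32 for Cyp4f18, with limma adjusted p of 0.159, 0.106 and 0.260. The normalized levels of Cyp4f16 did not overlap, as those of 19.1% of all genes, at 6.18 to 6.48 in the controls and 6.54 to 6.99 with the Mogat1 ASO, but its deposited signals did, at 143 to 170 and 156 to 203. Cyp4b1, known mainly from lung and kidney, was at 0.37 with an adjusted p of 0.0391 without Mogat1 ASO replicate 1.

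Genes whose centred profile over the 8 arrays came closest to that of a member were found by the root mean square (RMS) difference in log2 units, for the 4 members that spanned more than 1 log2 unit. This is a likeness of profiles over 8 arrays of one tissue in 2 groups, with no test. Closest to Cyp4a12b were Egfr (RMS 0.591), the receptor of epidermal growth factor, Avpr1a (0.617), a vasopressin receptor, and OTTMUSG00000007485 (0.696). Cyp4a12a, its near relative, was farther from it, at 1.46, as were the other members, at 1.20 (Cyp4f14) to 2.44 (Cyp4a14). Egfr read 12.77, 12.26, 12.20 and 12.27 in the control mice and 12.72, 10.37, 9.58 and 11.29 in the Mogat1 ASO mice. As for Cyp4a12b, replicates 2, 3 and 4 lay below all controls and replicate 1 lay among them.

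Closest to Cyp4a14 were Mfsd2a (0.721), a transporter of lysophospholipids, Acot3 (0.749), a peroxisomal acyl-CoA thioesterase, and G0s2 (0.756), an inhibitor of the triglyceride lipase Pnpla2. Mfsd2a stood at 7.99 on Mogat1 ASO replicate 1 and between 10.90 and 11.55 on the other Mogat1 ASO arrays. Closest to Cyp4f14 were Tle1 (0.119), Rnu6 (0.133) and 6330444G18Rik (0.136), and the fellow members Cyp4f13 and Cyp4v3 stood at 0.233 and 0.239. Closest to Cyp4a12a were Grhl1 (0.184), Arid5b (0.243) and Tdo2 (0.244), each with a dim probe.

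**Figure D4:**
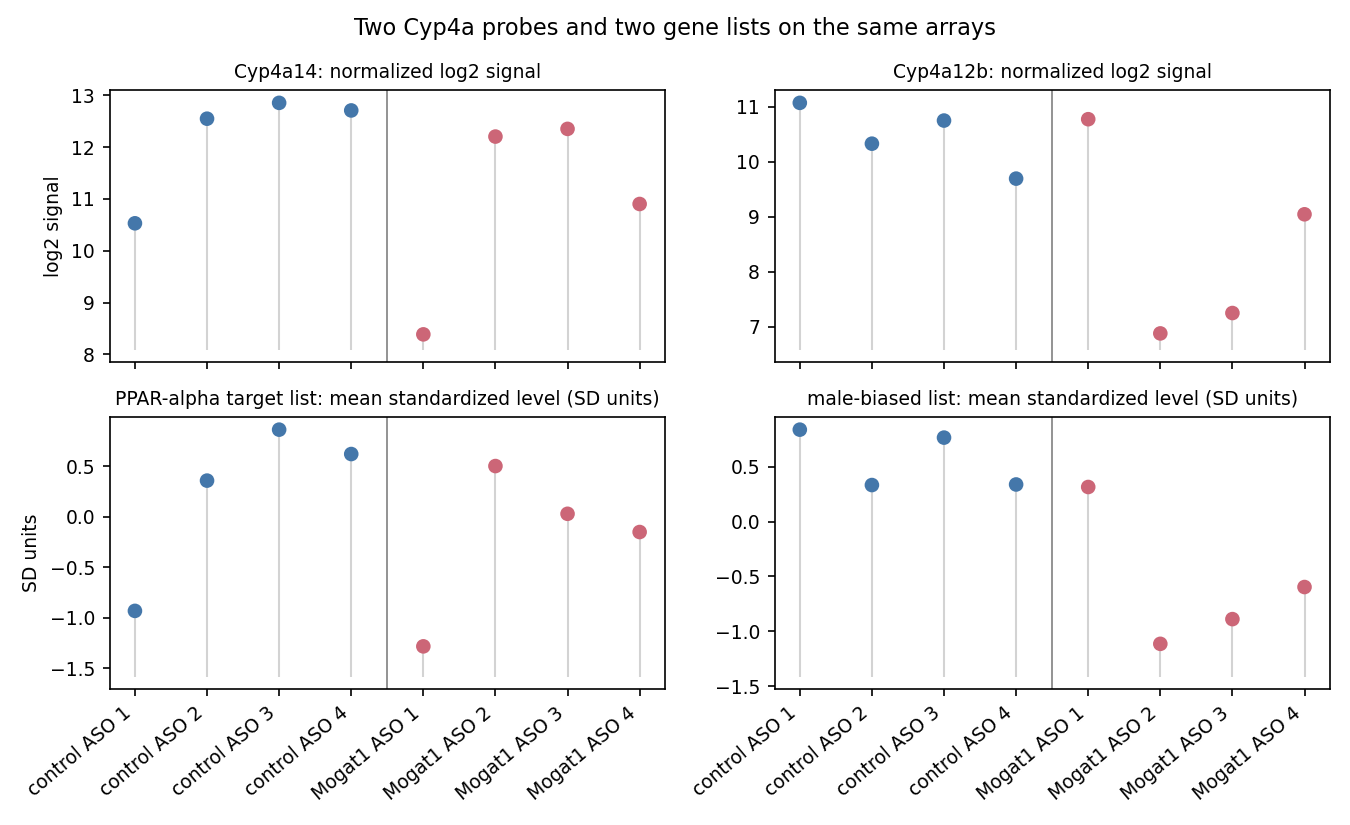
Normalized log2 level of Cyp4a14 and Cyp4a12b on each of the 8 arrays (upper panels) above the mean standardized level in SD units of the PPAR-alpha targets and of the male-biased genes (lower panels). Replicate 1 of both groups is low for Cyp4a14 and for the mean of the PPAR-alpha targets. Mogat1 ASO replicates 2, 3 and 4 are low for Cyp4a12b and for the mean of the male-biased genes. Cyp4a12a, which is not drawn here, was highest on Mogat1 ASO replicate 2.

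Gene lists around the Cyp4 enzymes were then read from the same fit, with 1 probe per gene. Over all 8 lists 14 of 105 distinct genes tested passed, all of them lower, beside 13.3% of 11686 genes called in either direction, 7.14% called higher and 6.12% called lower. Without Mogat1 ASO replicate 1 the count was 26 in either direction, in a fit that called 18.8% of all tested probes, with 3 of the PPAR-alpha partners, 4 of the PPAR-alpha targets, 2 of the downstream enzymes, 4 of the eicosanoid enzymes and 12 of the male-biased genes past the test. PPAR-alpha and its partner receptors and coregulators gave 0 of 16 tested genes past the test, with a median difference of 0.01 against -0.0036 over all genes. Over 18 alternatives this count ranged from 0 to 3. Rxra, a partner receptor, came closest, with a difference of -0.38 (limma adjusted p 0.0504). Its groups did not overlap, as those of 8.81% of all genes in this direction. Ppara itself read 7.22, 7.81, 8.03 and 7.59 in the control mice and 7.48, 7.31, 7.64 and 7.27 in the Mogat1 ASO mice, groups that overlap, with a difference of -0.24 (limma adjusted p 0.399). Nr1h3 and Nr1h4, the receptors of oxysterols and bile acids, had differences of 0.04 and 0.08 that did not pass.

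The PPAR-alpha targets of fatty acid oxidation and storage, a list without Cyp4 genes, gave 2 of 30 tested genes lower and 0 higher, with a median of -0.16. Those that fell were Acot1, a cytosolic acyl-CoA thioesterase, by 1.87 on the log2 scale (3.65-fold, limma adjusted p 0.00274), and Eci2, an enoyl-CoA isomerase, by 0.58 (1.5-fold, limma adjusted p 0.00701). The mean standardized level of the 30 genes, in SD units, was -0.93, 0.36, 0.86 and 0.62 on the control arrays and -1.28, 0.50, 0.03 and -0.15 on the Mogat1 ASO arrays. Replicate 1 was lowest in both groups, as for Cyp4a14, while the remaining arrays of the groups overlapped.

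The enzymes that carry omega-hydroxy fatty acids on to dicarboxylic acids and shorten these in peroxisomes gave 0 of 19 tested genes past the test, with a median of -0.10. Over 18 alternatives this count ranged from 0 to 5. The mean standardized level of this list was also lowest on replicate 1 of both groups, at -0.62 in the controls and -1.01 with the Mogat1 ASO. Several of its genes are on the PPAR-alpha target list too. Adh1, the main liver alcohol dehydrogenase, had a difference of 0.03, and Acaa1b, a peroxisomal thiolase that is also on the PPAR-alpha list, one of -0.18. The redox and haem partners of microsomal P450 enzymes gave 0 of 6, with a median of -0.07. Cyb5a and Cyb5b, the cytochromes that can pass an electron to P450 enzymes, had differences of -0.11 and 0.01, neither of which passed.

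Other eicosanoid enzymes, which share arachidonic acid and leukotrienes with the Cyp4 enzymes as substrates, gave 2 of 15 tested genes lower and 0 higher, with a median of -0.35. Ephx2, the soluble epoxide hydrolase, read 11.81, 12.29, 12.39 and 12.09 in the control mice and 11.54, 11.70, 11.44 and 11.47 in the Mogat1 ASO mice. Its groups did not overlap, as those of 8.81% of all genes in this direction, and it fell by 0.61 (SE 0.12, 1.52-fold, limma adjusted p 0.00936). Ltc4s, the leukotriene C synthase, fell by 0.47 (limma adjusted p 0.0187) at a dim level of 5.30 to 5.84, and its probe was detected on 3 of 4 Mogat1 ASO arrays. The difference was -0.18 without background correction, -0.27 with an offset of 50 and -0.26 in the other deposited table, all past the test. The call of Ltc4s ended without Mogat1 ASO replicate 3 (adjusted p 0.0547) or without control replicate 2 (adjusted p 0.0581).

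Genes that are higher in male than in female mouse liver, or that depend on growth hormone, are the setting in which Cyp4a12a is usually described. Of 18 tested genes without Cyp4 genes 9 fell and 0 rose, with a median of -0.62, beside 6.12% of all genes called lower. This list, like the others, was chosen with earlier results of these data known, so the count is a description and no independent test. Serpina12, a serine protease inhibitor, fell by 2.03 (4.08-fold, limma adjusted p 0.000595), Elovl3, a fatty acid elongase, by 1.66 (3.17-fold, limma adjusted p 0.00246) and C6, a complement component, by 1.47 (2.76-fold, limma adjusted p 0.00187). The Serpina4-ps1 probe was not detected on any Mogat1 ASO array and was detected on all controls, which makes it at least 9.02-fold lower under the background correction and offset used (limma adjusted p 0.000344). Its fitted fold was 4.09 without background correction and 5.86 with an offset of 50, so the bound applies only to the setting used. Cyp2d9, Cyp7b1, Susd4 and the growth hormone receptor Ghr also fell, by 0.65 to 1.30. The list's mean standardized level was 0.84, 0.33, 0.77 and 0.34 on the control arrays and 0.32, -1.11, -0.89 and -0.60 on the Mogat1 ASO arrays. In this mean Mogat1 ASO replicate 1 was just under the controls and the other 3 were far below. For Cyp4a12b, Cyp4f13 and Cyp4f14 those same 3 arrays were also below all controls, while replicate 1 lay inside or above the control range. Cyp4a12a itself did not show this, with Mogat1 ASO replicate 2 at 13.04 above the highest control of 12.86 and a difference that did not pass (limma adjusted p 0.481). Single genes of the list differed in the place of Mogat1 ASO replicate 1. That array was below all controls for Serpina12 (11.17 against a lowest control of 12.26), Elovl3, C6, Serpina4-ps1, Cyp2d9 and Ghr. It lay inside the control range for Cyp7b1 and Susd4. Of 4 tested female-biased genes 1 fell and 0 rose, with a median of -1.23, and all 4 differences were negative. The gene that fell was Prlr, the prolactin receptor, by 1.39 (2.61-fold, limma adjusted p 0.00918). Cyp2b9 had a difference of -2.30 that did not pass (limma adjusted p 0.254), with its probe detected on 2 of 4 Mogat1 ASO arrays.

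**Figure D5:**
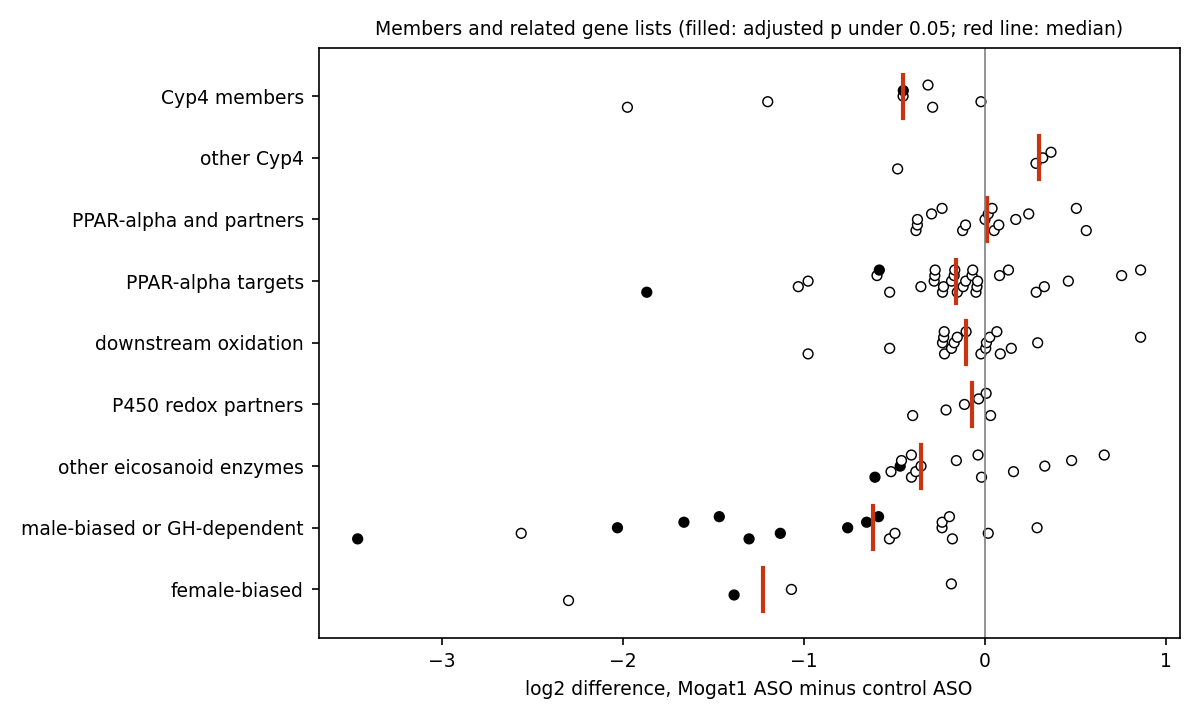
Difference in log2 level, Mogat1 ASO minus control ASO, of the 7 Cyp4 members and of each tested gene in the 8 lists around them, with the median of each as a line and genes past the test as filled points. Cyp4v3 and all 14 list genes past the test are below 0, and 9 of the 14 are in the male-biased list. The lists were chosen with earlier results of these data known.

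Markers of other liver cell types and of neighbouring tissues were read beside these values. None of the 7 tested hepatocyte markers passed, with differences from -0.71 to 0.03 and a median of -0.29, and their summed level was 17.19 to 17.47 in the controls and 17.11 to 17.29 with the Mogat1 ASO. Of 9 macrophage markers Lyz2 rose and Cd163 fell, with a summed level of 13.09 to 13.39 in the controls and 13.27 to 13.89 with the Mogat1 ASO. Of 6 endothelial markers Lyve1 rose and Stab2 fell, of 5 stellate cell markers Reln fell, and the pancreas marker Cela1 fell. None of the 3 tested neutrophil markers, 3 cholangiocyte markers or 2 adipocyte markers passed, and Krt19, Epcam, Adipoq and Plin1 were detected on no array. The part of these cells in the Cyp4 values was not tested.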

How the data were processed

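Total liver RNA of 8 mice was labelled with biotin after linear amplification, as the labels' protocols state. The deposited non-normalized table gives, per the file headers, for every probe and array a linear intensity with its detection p-value. Another deposited table holds the intensity as processed by the authors, on a linear scale with background subtracted, judged from its values, and it served as an alternative. The software behind these tables is not stated in the sources used here. The precision is limited by the number of arrays, 4 in each group, and p-values measure the spread between these mice.

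Background was corrected by normexp from the detection p-values, followed by quantile normalization and log2 with an offset of 16, by neqc of limma 3.58.1 in R 4.3.3 (with statmod 1.5.0 for array weights and version 1.17.8 of data.table). A probe entered the test if its detection p-value was under 0.05 on 4 or more of 8 arrays. The two-sided test used lmFit and eBayes with a variance trend, p-values were adjusted by Benjamini-Hochberg over all 16487 probes, and 0.05 was the threshold. All 95% intervals and SEs come from that fit. Folds are 2 to the power of the log2 difference and depend on background correction and offset for dim probes, and "at least" marks a bound set by the lowest detected signal. A gene in a list was represented by its brightest tested probe. Pairs of members were compared by exact permutation of 70 assignments in Python 3.11.15 with numpy 2.4.6 and pandas 2.3.3, and figures were drawn with matplotlib 3.10.9.

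Symbols were matched to RefSeq genes of GRCm38.p6, used for names and neighbours only: 27740 probes needed no update, 8037 received a newer symbol, 122 fitted several genes and 9382 had no match. Near-identical Cyp4 copies may share a probe's signal. The members and gene lists were chosen with earlier results of these data known. Named were every member, from each other list the up to 4 largest changes past the threshold (the brightest genes where fewer than 2 passed) and Ppara, and the 3 nearest profiles for each member that spans more than 1 log2 unit. All 4 tested other Cyp4 genes, 4 further male-biased genes that passed (another is not reported here) and the markers with changes were named after their values were seen. The test was tried on simulated data. Alternatives covered the background correction, offset, normalization, filter, variance model, array weights, a replicate block, the other deposited table and leaving out arrays.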

Additional observations from a re-analysis of the deposited data

Results flagged for a closer look

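In 56 groups of 4 arrays, taken from the 7 members, the 4 other Cyp4 genes tested and the list genes named by rule, the highest or lowest array was compared with the others, and 5 held an array that stood apart from the rest by Dixon's ratio of gap to range at the 95% level. Chance alone gives about 1 in 20 such groups.

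Among the members this concerned Cyp4a14, with control replicate 1 at 10.53 against 12.55 to 12.86 for the other controls. Among the other Cyp4 genes, Cyp4b1 was lowest on Mogat1 ASO replicate 1, at 8.66 against 9.0 to 9.05, and Cyp4f16 was highest there, at 6.99 against 6.54 to 6.55. Adh1 was highest on control replicate 1, at 15.72 against 15.57 to 15.58. Ltc4s was lowest on control replicate 3, at 5.66 against 5.82 to 5.84. Apart from Ltc4s, each of these is replicate 1 of its group, and the cause was not tested.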

How the results depend on the processing

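The count of members past the test, 1 with all arrays, was 4 with array weights, 3 with the replicate number as a block, 4 without both replicates numbered 1 (added after the data were seen) and 1 to 4 when 1 array was left out, reaching 4 without Mogat1 ASO replicate 1. Over all probes the count of 2078 (12.6%) became 3561 (21.6%) with array weights and 1967 (11.9%) with the block. Without both replicates numbered 1 it was 3366 (20.4%), and when 1 array was left out 1152 to 3101 (6.99% to 18.8%). It was lowest without Mogat1 ASO replicate 3. In the gene lists the count of 14 of 105 genes became 29, 22, 37 and 11 to 26 in the same order. Whether the numbers pair the mice cannot be decided from 8 arrays. Same-numbered arrays deviated with correlations of 0.199, 0.079, -0.031 and 2.8e-05 for replicates 1 to 4. In all, 3 of 8 arrays correlated best with their own number, among them replicate 1 of both groups. With the block, Cyp4a12b (adjusted p 0.0434) and Cyp4a14 (adjusted p 0.0277) passed beside Cyp4v3. Median scaling gave 1024 higher and 1124 lower probes against 1101 and 977.

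Signs turned for differences near 0 that never passed. Cyp4f15 ranged from -0.0836 to 0.0236 when 1 array was left out, above 0 without Mogat1 ASO replicate 2, control replicate 2 or control replicate 3. Under median scaling Nr1h3 was at -0.0343, Nr1h4 at -0.0398 and Cyb5b at -0.0536. When 1 array was left out, Cyb5b ranged from -0.0527 to 0.0827, Adh1 from -0.0253 to 0.138 and Acaa1b from -0.407 to 0.0761. The causes were not tested.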
